A study of Nothobranchius furzeri with 9 samples.

Results

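Cytosolic ribosomal proteins are the protein subunits of the ribosome that translates nuclear messenger RNA, and their transcripts were followed here across 3 ages of skeletal muscle of the turquoise killifish, *Nothobranchius furzeri*. Entries of the expression table were taken by gene name: names that begin with RPL or RPS and a digit, with RPLP, or with RPSA, leaving out the RPS6K kinases. This gave 65 entries under 58 names, of 39396 entries in all. Of these, 39 encode proteins of the large subunit and 24 proteins of the small subunit. The other 2, RPL7L1 and RPS19BP1, share the name pattern but are not known as subunits of the mature ribosome. Names of mitochondrial ribosomal proteins begin differently and were not taken.

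The killifish is an annual fish with a very short life. RNA sequencing was done on 9 libraries of whole skeletal muscle from male fish of the MZM-04/10 strain, fasted and killed at the same hour: young fish of 5 weeks, adult fish of 20 weeks and old fish of 35 weeks, with 3 fish and 3 libraries per age and no treatment. Values are normalized counts as the authors deposited them: the reads of each gene were scaled with a factor for each library, and whole numbers were kept. Estimated reads on genes were 11.72–12.91 M per young library, 11.75–14.23 M per adult library and 7.96–12.71 M per old library. These estimates come from factors fitted to the spacing of the values. The fit was uneven, with correlations from 0.547 in young replicate 3 to 0.976 in old replicate 3.

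In a eukaryotic cell the ribosomal proteins are made in the cytoplasm, imported into the nucleus and joined to ribosomal RNA in the nucleolus with the help of many assembly factors that leave before the ribosome works. The subunits are needed in fixed proportions, and in vertebrates their mRNAs share a pyrimidine-rich start through which the growth kinase mTOR and the RNA-binding protein LARP1 set their translation. In mammalian muscle, the making of new ribosomes accompanies growth of the fibres.

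Messenger RNAs of ribosomal proteins were abundant, and with the deposited scaling more of them than of all tested entries had small fold changes. Of the 65 entries, 62 had a mean of at least 5 normalized counts and were tested, with means of 10.6 to 13575 and a median of 2230. In adult against young muscle 56 of the 62 lay within 0.5 of 0 on the log2 scale (90.3%, against 42.5% of all tested entries), and in old against young muscle 48 did (77.4%, against 46.5%). The shift that was seen was small and mostly downward: the median log2 fold change of the 62 was −0.16 in adult and −0.36 in old muscle, both against young, where the medians of all tested entries were −0.004 and −0.031. Fold changes are on the scale of log2(value + 1), and the median standard error (SE) of a ribosomal protein entry was 0.185 log2, against 0.313 for all tested entries. All tested entries reach down to a mean of 5, and no set of entries of like abundance was compared. With other scalings the share of members called in old muscle was above that of all tested entries, as given below. In bulk tissue, fewer cells of a type and less RNA per cell cannot be told apart.

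**Figure D1:**
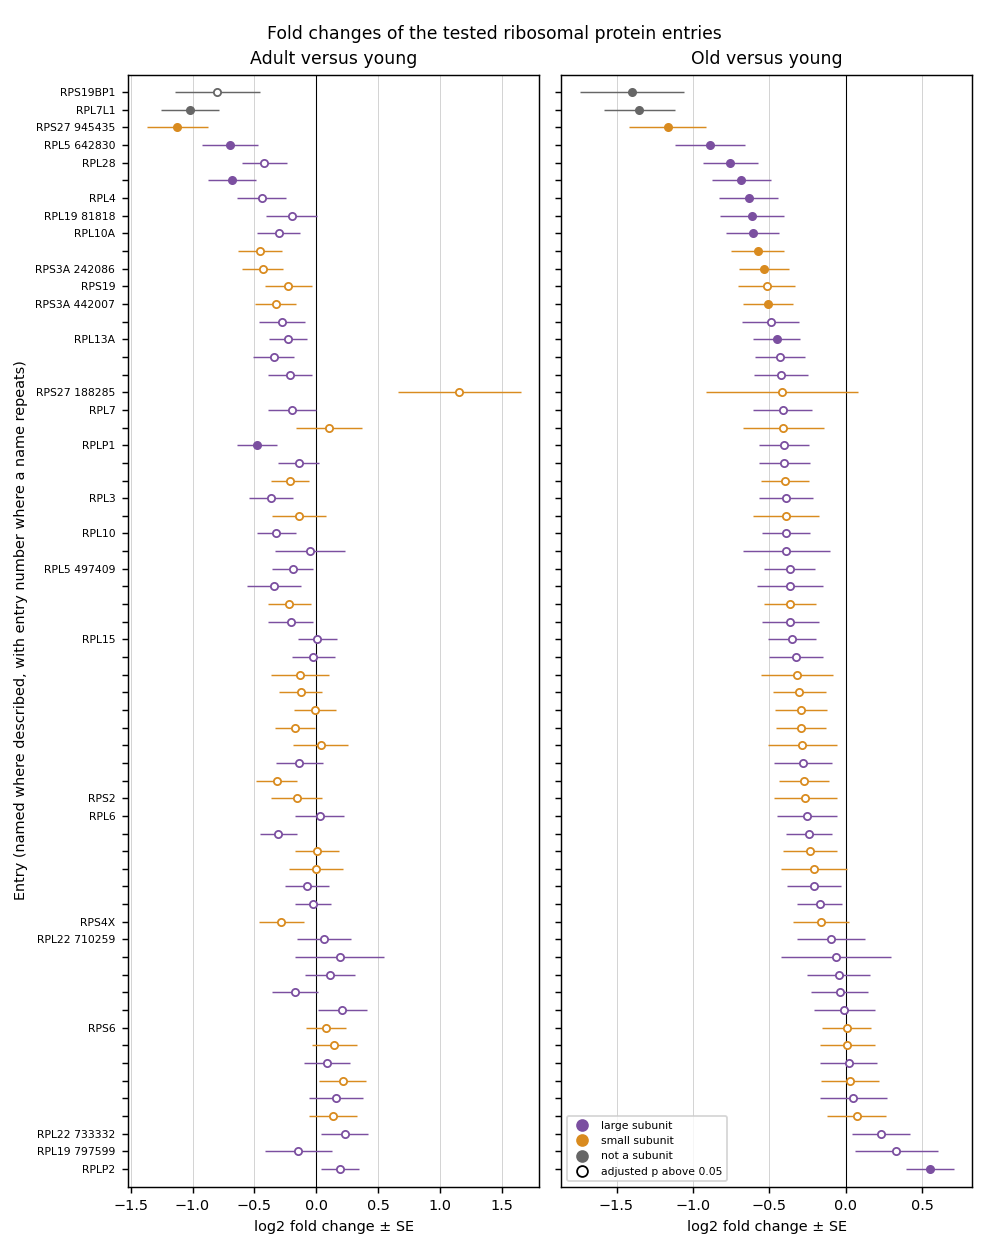
Log2 fold change with its SE (horizontal axis) for each of the 62 tested entries (vertical axis) in adult against young muscle (left) and old against young muscle (right), ordered by the change in old muscle and labelled where the text names the entry. Filled points passed an adjusted p of 0.05 (limma). Most points sit between −0.5 and 0; RPL7L1, RPS19BP1 and RPS27 945435 stand at the top on the low side, and RPLP2 is the 1 filled point on the high side.

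The means of most tested entries, the 2 that are not subunits included, followed the order of age. The mean was highest in young muscle for 45 of the 62 entries, in adult muscle for 14 and in old muscle for 3, and it was lowest in old muscle for 46. In 38 entries it was lower at each older age and in 2 it was higher at each. The order of the means was not counted over all tested entries. Fold changes in adult muscle were below 0 for 43 entries and those in old muscle for 53, both against young, and 54 were below 0 in old against adult muscle. These are 69.4%, 85.5% and 87.1% of the members, against 50.2%, 51.4% and 50.8% of all tested entries. Medians were also taken by subunit. The large subunit (36 tested entries) had median log2 fold changes of −0.18 in adult and −0.36 in old muscle, and the small subunit (24 tested entries) had −0.14 and −0.30, all against young. The summed counts of the large subunit were 1.97, 2.02 and 2.04 times those of the small subunit in the young, 1.86, 2.01 and 1.96 times in the adult and 2.06, 1.76 and 1.95 times in the old libraries, and these ranges overlapped. Entries are not independent of each other, since all come from the same 9 libraries, so these counts and medians are descriptions and carry no test.

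As a share of all normalized counts of a library, the 65 entries made up 2.04, 2.06 and 2.22% in the 3 young libraries, 1.49, 1.90 and 1.80% in the adult libraries and 1.60, 1.19 and 1.45% in the old libraries. The means were 2.11% ± 0.10, 1.73% ± 0.21 and 1.41% ± 0.21 (SD, n = 3 each). No adult or old library reached the young ones, whereas old replicate 1 lay above adult replicate 1. A share also moves with what else is in the library. Between 49.6 and 59.8% of a library fell on the 20 entries that were most abundant on average over all libraries. With those left out of the total, the shares were 4.57, 4.49 and 5.05% in the young, 3.62, 3.76 and 4.20% in the adult and 3.67, 2.97 and 3.38% in the old libraries, and again neither older age overlapped with young. Summed over the entries, normalized counts were 225151 ± 24837 in the young, 199145 ± 22733 in the adult and 181792 ± 22203 in the old muscle (SD, n = 3 each). Unlike the shares, these sums overlapped between adult and young muscle. Adult replicate 3, at 223519, lay above young replicates 1 and 2, at 210517 and 211107. The highest old sum, 207227 in replicate 1, lay below all young ones.

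**Figure D2:**
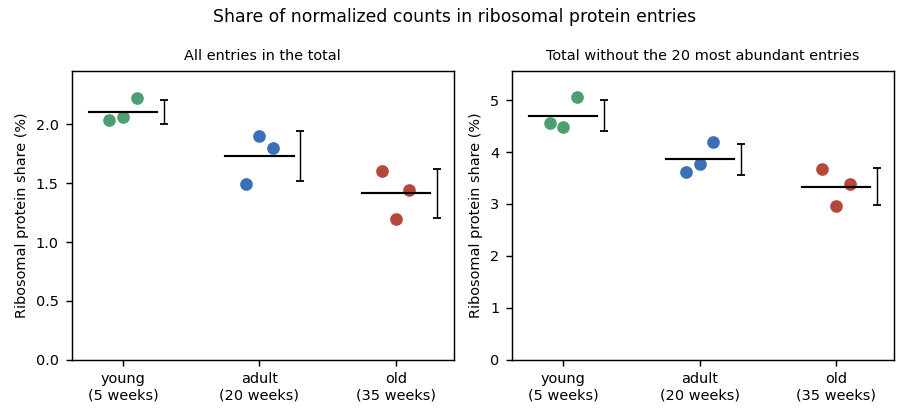
Percent of the normalized counts of each library that fell on the 65 ribosomal protein entries (vertical axis, from 0) at 3 ages, with all entries in the total (left) or without the 20 most abundant (right). Points are libraries, lines are means and brackets are SD (n = 3). All 3 young libraries lie above all adult and old libraries in both panels.

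Within an age, most ribosomal protein entries were highest in the same library. These ranks were not taken over all tested entries, so whether the pattern is particular to ribosomal proteins was not tested. Young replicate 3 had the highest value of the young libraries for 55 of the 62 entries, adult replicate 3 the highest adult value for 50 and old replicate 1 the highest old value for 45. In adult replicate 2 the value was the lowest of its age for 41 entries. These libraries are separate fish, so a move of the whole group between 2 fish of an age enters the spread of every entry.

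By an adjusted p of 0.05, 5 of the 62 entries changed in adult against young muscle, all of them lower (17.2% of all tested entries were called lower and 16.2% higher). In old against young muscle 13 fell and 1 rose (all tested entries: 14.3% lower, 12.9% higher). In either direction 8.06% of the members were called in adult and 22.6% in old muscle (all tested entries: 33.4% and 27.1%), and in the lower direction alone 8.06% and 21.0%, the second of which was above the 14.3% of all tested entries. With a limit of 2-fold added, 2 entries were called in adult and 3 in old muscle (all tested entries: 22.1% and 17.7%). Between old and adult muscle none was called by limma, with or without the 2-fold limit (all tested entries: 2.65% called, 1.45% lower and 1.2% higher, and 2.09% past 2-fold). At an unadjusted p of at most 0.05 there were 11 entries in adult and 25 in old against young muscle and 3 in old against adult muscle (all tested entries: 43.5%, 40.4% and 20.4%). Without overlap between the 2 ages, 15 entries were lower and 1 was higher in adult against young muscle (all tested entries: 26.3% and 23.9%), 25 were lower and 1 was higher in old against young muscle (22.4% and 19.6%), and 4 were lower and 1 was higher in old against adult muscle (10.3% and 10.7%). The count of calls rested on single libraries, and the shares of all tested entries were not taken with a library left out. Without young replicate 3, 2 entries were called in adult and 3 in old muscle; without adult replicate 2, 2 were called in adult muscle, and without young replicate 2 or old replicate 3, 5 were called in old muscle.

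The count also depended on how libraries were scaled. With libraries scaled to equal totals, 8 entries were lower in adult and 36 in old muscle, both against young, and none was higher, so that 12.9% and 58.1% of the members were called (all tested entries: 28.1% and 25.9%). This scaling moved the median of all tested entries to −0.12 in adult and −0.29 in old muscle, so that the median of the ribosomal proteins relative to it was −0.16 and −0.34, beside −0.16 and −0.33 with the deposited scaling. After quantile normalization, with the median of all tested entries at 0.01 in both, it was −0.37 and −0.57, and 27 entries were called lower in adult and 40 in old muscle (43.5% and 64.5%, against 35.4% and 28.4% of all tested entries). Among all tested entries, 2831 were called higher and 3006 lower in adult and 2244 higher and 2488 lower in old muscle with the deposited scaling, against 1876 higher and 3022 lower, and 1088 higher and 3435 lower, at equal totals.

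The clearest fall of a subunit was in RPS27, a small zinc-finger protein of the small subunit, which has 2 entries in the table. Entry 945435 had 214, 227 and 244 normalized counts in the young, 79, 96 and 149 in the adult and 76, 120 and 113 in the old libraries. Young libraries did not overlap with the other ages, and adult and old libraries covered much the same range. Its log2 fold change was −1.12 ± 0.25 in adult (SE, adjusted p = 0.0056, limma) and −1.17 ± 0.25 in old muscle (adjusted p = 0.0062), both against young. Together with RPL7L1 this was the member whose calls in both comparisons held under each of the 21 alternatives tried. The other RPS27 entry, 188285, was at the low end of the tested range with 10, 3 and 12 normalized counts in the young, 13, 24 and 17 in the adult and 7, 5 and 4 in the old libraries. It was the 1 entry of adult muscle that lay above young without overlap, with a log2 fold change of 1.15 ± 0.50 that did not pass (adjusted p = 0.0955), and its old values lay below all adult ones (−1.57 ± 0.50, adjusted p = 0.11).

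Both entries that are not subunits had larger changes than nearly all subunits. RPL7L1 (entry 324263) is a relative of RPL7 whose yeast counterpart acts in the assembly of the large subunit. It had 271, 254 and 275 normalized counts in the young, 99, 112 and 201 in the adult and 101, 108 and 103 in the old libraries. Young libraries did not overlap with either older age, but adult replicate 3 lay between them and the other adult libraries. The log2 fold change was −1.02 ± 0.24 in adult (adjusted p = 0.00675, limma) and −1.35 ± 0.24 in old muscle (adjusted p = 0.00217), both against young. RPS19BP1 (entry 703964), known in mammals as a partner of RPS19 and of the deacetylase SIRT1, had 54, 50 and 73 normalized counts in the young, 22, 48 and 34 in the adult and 14, 28 and 25 in the old libraries. It fell in old against young muscle (log2 fold change −1.40 ± 0.34, adjusted p = 0.0119), and the adult change of −0.80 ± 0.34 did not pass (adjusted p = 0.0933). Its call in old muscle was lost when young replicate 3 was left out. With both of these set aside, 4 subunit entries were called in adult and 12 in old muscle, and 1 in each, RPS27 945435, passed the 2-fold limit.

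**Figure D3:**
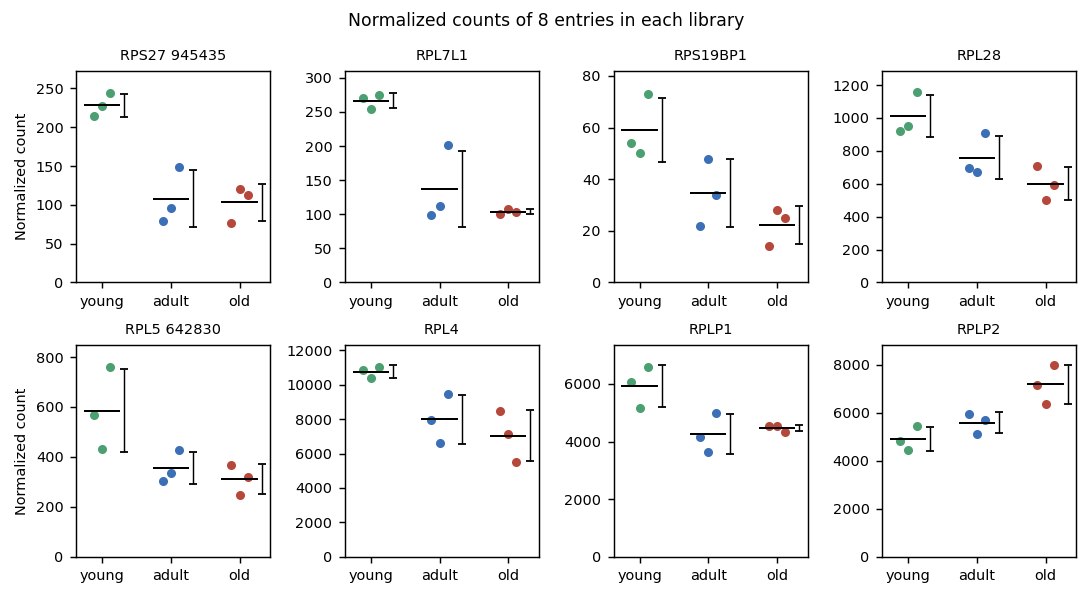
Normalized counts (vertical axes, from 0) of 8 entries in each library at 3 ages. Points are libraries, lines are means and brackets are SD (n = 3). Young libraries lie above both older ages in all panels but RPLP2, where old libraries lie above all others.

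Among proteins of the large subunit, RPL5, which binds 5S ribosomal RNA and brings it into the large subunit, has 2 entries. The less abundant, 642830, had 566, 430 and 760 normalized counts in the young, 303, 334 and 428 in the adult and 366, 249 and 319 in the old libraries, with adult replicate 3 just under the lowest young value. It fell by 0.70 ± 0.23 in adult (adjusted p = 0.0358, limma) and by 0.89 ± 0.23 on the log2 scale in old muscle (adjusted p = 0.0152). The abundant RPL5 entry, 497409, with 7455, 7472 and 8623 normalized counts in the young, 6698, 5984 and 8038 in the adult and 6815, 5948 and 5512 in the old libraries, did not pass in either (−0.19 and −0.37, adjusted p = 0.40 and 0.12).

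RPL28 (entry 876923), a large subunit protein that budding yeast lacks, had 921, 952 and 1159 normalized counts in the young, 693, 674 and 909 in the adult and 706, 504 and 592 in the old libraries. It was lower in old muscle without overlap with young (log2 fold change −0.76 ± 0.18, adjusted p = 0.0102, limma), and in adult muscle the change of −0.42 ± 0.18 did not pass (adjusted p = 0.093). The old calls of RPL28 and of RPL5 642830 were lost when young replicate 3 was left out, and the adult call of RPL5 642830 without young replicate 1 or 3 or adult replicate 1 or 2. RPL4, which lines the tunnel through which the new protein leaves, is among the abundant members. It had 10870, 10362 and 11051 normalized counts in the young, 7966, 6597 and 9444 in the adult and 8467, 7118 and 5499 in the old libraries, and it fell in old muscle by 0.64 ± 0.20 on the log2 scale (adjusted p = 0.0323). This call was lost under 7 alternatives, among them leaving out any of the 3 young libraries or old replicate 2 or 3.

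RPL10A, of the mobile stalk beside the exit site for transfer RNA, had 2263, 2249 and 2574 normalized counts in the young, 1769, 1746 and 2247 in the adult and 1631, 1793 and 1259 in the old libraries. Its log2 fold change in old against young muscle was −0.61 ± 0.17 (adjusted p = 0.022, limma), and young and old libraries did not overlap, but the call was lost without any 1 of the young libraries or old replicate 3. RPL13A, which in human cells also has a role in silencing mRNAs outside the ribosome, had 3222, 3287 and 3788 normalized counts in the young, 2885, 2621 and 3301 in the adult and 2864, 2290 and 2391 in the old libraries. It was close to the threshold (−0.45 ± 0.15, adjusted p = 0.0493) and was not called under 12 of the 21 alternatives, which include leaving out any library other than adult replicate 2 and old replicate 1.

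In the small subunit, both entries of RPS3A, a protein near the exit of the mRNA channel, fell in old against young muscle. Entry 242086 had 981, 979 and 1089 normalized counts in the young, 762, 652 and 855 in the adult and 809, 734 and 579 in the old libraries (−0.53 ± 0.16, adjusted p = 0.0333, limma). Entry 442007 had 3587, 4013 and 4830 in the young, 3110, 3052 and 3698 in the adult and 3231, 2931 and 2549 in the old libraries (−0.51 ± 0.16, adjusted p = 0.0405). The ratio of the first to the second was 0.225 to 0.273 in the young, 0.214 to 0.245 in the adult and 0.227 to 0.250 in the old libraries, so the ranges of all ages overlapped. The call of entry 242086 was lost under 5 alternatives: without any 1 of the young libraries or old replicate 3, and with a replicate block. That of entry 442007 was lost under 7: without young replicate 2 or 3 or old replicate 2 or 3, with no filter on low values, with only the 2 ages compared in the fit, and with a replicate block.

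The 3 proteins of the stalk that recruits elongation factors to the ribosome are RPLP0, RPLP1 and RPLP2, of which the last 2 bind as pairs. RPLP0 was not analysed here. With all libraries and the deposited scaling, RPLP2 (entry 547146) was the only member called higher. It had 4826, 4436 and 5434 normalized counts in the young, 5962, 5119 and 5694 in the adult and 7171, 6382 and 7993 in the old libraries. All old values were above all young and adult ones, and the log2 fold change in old against young muscle was 0.55 ± 0.16 (adjusted p = 0.0228, limma), while that in adult muscle, 0.19 ± 0.16, did not pass (adjusted p = 0.365). Its direction was the same under all 21 alternatives, with log2 fold changes of 0.24 to 0.63, and the call was lost under 7 of them: equal totals, totals without the 20 most abundant entries, quantile normalization and leaving out young replicate 1 or 2 or old replicate 1 or 3. RPLP1 (entry 178563) had 6071, 5155 and 6576 normalized counts in the young, 4171, 3635 and 4991 in the adult and 4530, 4526 and 4341 in the old libraries. It fell in adult against young muscle (−0.48 ± 0.16, adjusted p = 0.0403), a call lost under 6 alternatives, among them leaving out young replicate 1 or 3 or adult replicate 1 or 2, and in old muscle the change of −0.40 ± 0.16 did not pass (adjusted p = 0.0866).

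Since both belong to 1 stalk, their ratio within a library was also taken, a description chosen after their values were seen. RPLP2 divided by RPLP1 was 0.795, 0.861 and 0.826 in the young, 1.43, 1.41 and 1.14 in the adult and 1.58, 1.41 and 1.84 in the old libraries. A ratio within a library does not change with its scaling factor, and RPLP1 exceeded RPLP2 in normalized counts in every young library and in no adult or old one. Transcript lengths were not used, so the ratio is set side by side between ages only. On the log2 scale the difference was 0.67 for adult minus young, 0.95 for old minus young and 0.28 for old minus adult.

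**Figure D4:**
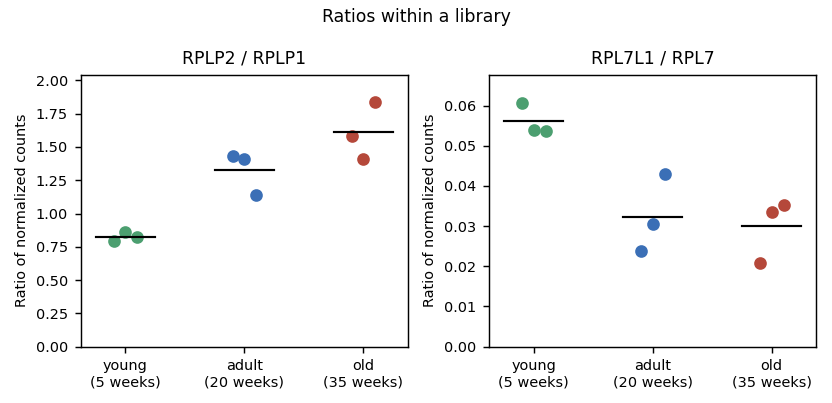
Ratio of the normalized counts of RPLP2 to RPLP1 (left) and of RPL7L1 to RPL7 (right) within each library (vertical axes, from 0) at 3 ages. Points are libraries and lines are means (n = 3). In the left panel the young libraries, 0.795 to 0.861, lie below all others; in the right panel they lie above all others.

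RPL7L1 was set against RPL7 itself in the same manner. RPL7, a large subunit protein with 4463, 4714 and 5118 normalized counts in the young, 4186, 3680 and 4669 in the adult and 4830, 3218 and 2926 in the old libraries, passed no comparison (log2 fold change −0.19 in adult and −0.41 in old against young). The ratio of RPL7L1 to RPL7 was 0.0607, 0.0539 and 0.0537 in the young, 0.0237, 0.0304 and 0.0430 in the adult and 0.0209, 0.0336 and 0.0352 in the old libraries. On the log2 scale it differed by −0.83 for adult minus young and by −0.94 for old minus young, without overlap. A two-sided exact permutation test gave p = 0.10 for each, the smallest p that 3 against 3 libraries allow, and 0.15 after adjustment over the 3 comparisons. For old minus adult the difference was −0.11 (exact p = 0.80).

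Entries that share a name need care, because reads that fitted several genes or places were left out by the authors, so that near-identical copies are undercounted and the split between them is uncertain. There were 7 names with 2 entries each: RPL5, RPL10, RPL15, RPL19, RPL22, RPS3A and RPS27. The RPL19 pair, for a protein that forms a bridge to the small subunit, took opposite signs in old muscle. Entry 81818 had 10852, 10769 and 14632 normalized counts in the young, 8468, 10355 and 12859 in the adult and 8725, 6502 and 8463 in the old libraries and fell in old against young muscle (−0.61 ± 0.21, adjusted p = 0.0494, limma), a call lost under 10 of the 21 alternatives, which include leaving out any young or old library or adult replicate 2. Entry 797599 had 896, 683 and 854 in the young, 820, 678 and 694 in the adult and 1322, 597 and 1320 in the old libraries, with old replicate 2 under all other libraries and the other 2 old libraries above all (0.33 ± 0.27, adjusted p = 0.388). Without old replicate 2 it was called higher in old muscle against both other ages. The ratio of entry 797599 to entry 81818 was 0.0584 to 0.0826 in the young, 0.0540 to 0.0968 in the adult and 0.0918 to 0.156 in the old libraries, so that old did not overlap with young, a description chosen after seeing the values. Neither entry of RPL22, an RNA-binding protein of the large subunit, passed in any comparison, with log2 fold changes of 0.06 and 0.23 in adult and −0.10 and 0.23 in old against young muscle. Of RPL10 and RPL15, 1 entry each was expressed: RPL10 607580 (log2 fold change −0.32 in adult and −0.39 in old against young) and RPL15 922428 (0.01 and −0.35) passed no test.

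The 3 entries under the minimum were RPL10 636512 with 0 to 1 normalized counts per library, RPL15 664709 with 0 to 3, and RPL24 504923 with 6, 7 and 2 in the young, 3, 6 and 2 in the adult and 4, 6 and 4 in the old libraries. The first 2 have a second entry at 1807 to 2970 and at 622 to 1079 normalized counts, whereas RPL24 has only this one.

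The most abundant entries by normalized count, which is not corrected for transcript length, were RPL6, RPL19 81818 and RPL4 in the large and RPS2, RPS4X and RPS6 in the small subunit. RPL4 and RPL19 81818 fell in old against young muscle, as given above, and the other 4 passed no test. RPL6 had 13265, 14302 and 14928 normalized counts in the young, 13910, 12918 and 16639 in the adult and 15152, 11528 and 9531 in the old libraries. RPS2, at the entrance of the mRNA channel, had 13894, 14070 and 14067 in the young, 14616, 9965 and 13601 in the adult and 9768, 14871 and 10890 in the old libraries. The ages overlapped in both, with log2 fold changes of −0.26 and −0.27 in old against young muscle (adjusted p = 0.362 and 0.361, limma). RPS6, the substrate of the S6 kinases, had 4896, 5228 and 6267 in the young, 5692, 5261 and 6283 in the adult and 6201, 5060 and 5187 in the old libraries. Its log2 fold change was 0.08 ± 0.16 in adult and 0.01 ± 0.16 in old against young muscle. RPL3, part of the peptidyl transferase region, had −0.37 ± 0.18 in adult and −0.39 ± 0.18 in old muscle and passed neither (adjusted p = 0.133 and 0.117); its muscle-specific relative RPL3L was not analysed here.

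A protein of the small subunit under another name, GNB2L1 (also RACK1), a scaffold for kinases at the head of the subunit, had 4034, 4324 and 4800 normalized counts in the young, 3617, 3004 and 4021 in the adult and 3707, 2905 and 2692 in the old libraries. Its log2 fold changes were −0.31 ± 0.17 in adult (adjusted p = 0.186, limma) and −0.51 ± 0.17 in old against young muscle (adjusted p = 0.0469, lost under 11 of the 21 alternatives, which include leaving out any library other than adult replicate 2 and old replicate 1).

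The factors that build ribosomes moved further than the proteins of the ribosome. A list of 104 names of nucleolar processing factors, assembly factors and the RNA polymerase I machinery had 101 entries, of which 97 were tested. In adult against young muscle 70 of the 97 fell and none rose (72.2%, against 33.4% of all tested entries called in either direction and 17.2% called lower), and in old against young muscle 68 fell and none rose (70.1%, against 27.1% and 14.3%). Medians were −1.06 and −1.04 on the log2 scale. Fold changes were below 0 for 92 of the 97 in each (94.8%, against 50.2% of all tested entries in adult and 51.4% in old muscle). Both comparisons share the young libraries. Between old and adult muscle the median was 0.02 and 1 entry passed, TAF1B of the polymerase I initiation complex (1.31, adjusted p = 0.0373, limma), a call lost under 12 alternatives. The ribosomal proteins had medians of −0.16 and −0.36 in the first 2 comparisons and −0.18 in the last. The difference between the lists was not tested. Some abundant entries of the biogenesis list moved little against young muscle. DDX21 had log2 fold changes of 0.29 in adult and −0.29 in old against young muscle, and GTPBP4 836405 had −0.18 and −0.29. Neither passed in these comparisons. In old against adult muscle DDX21 was lower without overlap, at −0.58 (adjusted p = 0.0915, limma). That change did not pass but was called under 3 alternatives.

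**Figure D5:**
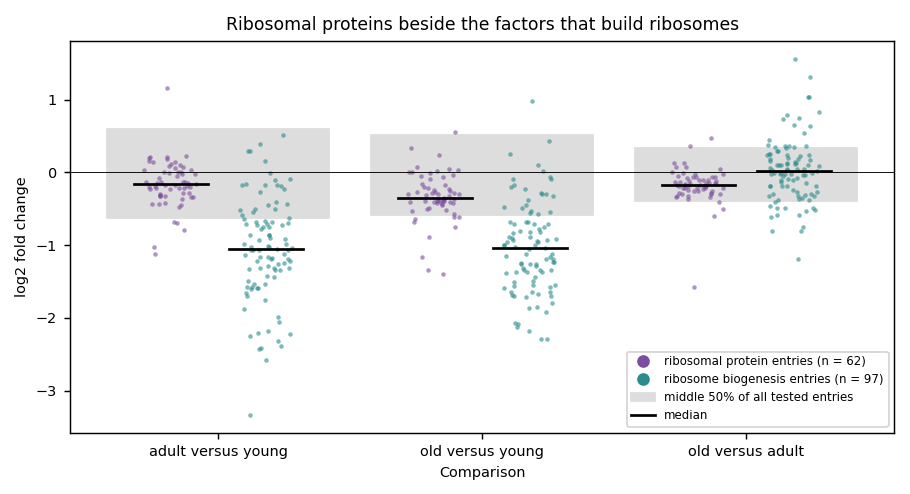
Log2 fold changes (vertical axis) of the 62 tested ribosomal protein entries and of 97 tested entries of ribosome biogenesis factors in 3 comparisons. Each point is an entry, black lines are medians and grey bands span the middle 50% of all tested entries. Biogenesis factors centre near −1 in both comparisons with young muscle and near 0 in old against adult muscle, while ribosomal proteins centre between −0.36 and −0.16 in all 3.

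In early steps, the helicase DDX10 had 283, 450 and 555 normalized counts in the young, 42, 35 and 44 in the adult and 56, 106 and 98 in the old libraries, a log2 fold change of −3.33 ± 0.29 in adult (adjusted p = 3.98e-05, limma) and −2.29 ± 0.29 in old muscle (adjusted p = 0.000416). NOLC1, a nucleolar chaperone of small nucleolar RNPs, had 233, 257 and 350 in the young, 51, 42 and 59 in the adult and 71, 97 and 97 in the old libraries (−2.43 and −1.65). BOP1, which matures the RNA of the large subunit, had 389, 430 and 411 in the young, 91, 87 and 116 in the adult and 101, 167 and 121 in the old libraries (−2.06 and −1.68). In each of these the young libraries stood well clear of both older ages.

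Nucleolin, of which NCL entry 542067 is the abundant one, had 5062, 4907 and 6573 normalized counts in the young, 2108, 2800 and 3279 in the adult and 2142, 2649 and 2741 in the old libraries (log2 fold change −1.02 and −1.13, adjusted p = 0.00241 and 0.0021, limma). POLR1A entry 92726, the largest subunit of RNA polymerase I, had 655, 669 and 1028 in the young, 296, 366 and 510 in the adult and 309, 277 and 234 in the old libraries (−1.01 and −1.49). Of late factors, EIF6, which keeps the large subunit from joining too soon, had 132, 133 and 142 in the young, 50, 70 and 83 in the adult and 54, 57 and 69 in the old libraries (−1.02 and −1.17). SBDS, which acts in the release of EIF6, did not pass, with 64, 53 and 93 in the young, 105, 99 and 68 in the adult and 90, 68 and 126 in the old libraries (0.38 and 0.42, adjusted p = 0.326 and 0.29).

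A further list held regulators of the translation of ribosomal protein mRNAs, together with MYC and MYCN, which act on their synthesis. Of its 10 names, 15 entries were tested; 3 rose and 2 fell in adult and 2 rose and 1 fell in old against young muscle, and 1 fell in old against adult muscle. The shares called, 33.3%, 20.0% and 6.67%, stood beside 33.4%, 27.1% and 2.65% of all tested entries, so the list as a whole was called no more often than other entries in the comparisons with young muscle. EIF4EBP2, a repressor of cap-dependent translation that mTOR switches off, rose: it had 182, 145 and 131 normalized counts in the young, 567, 775 and 497 in the adult and 394, 521 and 553 in the old libraries (log2 fold change 1.99 ± 0.21 and 1.67 ± 0.21, adjusted p = 9.53e-05 and 0.000399, limma). EIF4EBP1, of the same family, had 70, 74 and 89 in the young, 161, 115 and 145 in the adult and 250, 152 and 168 in the old libraries (0.84 ± 0.22 and 1.25 ± 0.22, adjusted p = 0.0136 and 0.00237). The adult call of EIF4EBP1 was lost without young replicate 1 or adult replicate 1.

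RPS6KB1, an S6 kinase, fell to 111, 150 and 187 normalized counts in adult and 188, 201 and 136 in old libraries, against 338, 334 and 346 in young ones (log2 fold change −1.21 ± 0.21 and −0.97 ± 0.21, adjusted p = 0.00154 and 0.00705, limma). The other S6 kinase of the list, RPS6KB2, did not pass (−0.20 and −0.12, adjusted p = 0.56 and 0.743). LARP1, the repressor that binds the pyrimidine-rich start, had 2962, 3323 and 3766 in the young, 2157, 1587 and 2075 in the adult and 2305, 3542 and 1838 in the old libraries. It fell in adult muscle (−0.79 ± 0.23, adjusted p = 0.0202, lost without young replicate 2 or 3 or adult replicate 2), and in old muscle replicate 2 was among the young values (−0.43 ± 0.23, adjusted p = 0.178). MTOR itself had 481, 481 and 569 in the young, 496, 530 and 535 in the adult and 496, 443 and 400 in the old libraries and did not pass (0.03 and −0.19). MYCN entry 906938, of the MYC family that drives ribosome synthesis in vertebrates, had 672, 628 and 718 in the young, 1643, 1404 and 1793 in the adult and 452, 807 and 523 in the old libraries, so that adult libraries stood above both other ages (1.26 ± 0.20 in adult against young, adjusted p = 0.00098, and −1.48 ± 0.20 in old against adult, adjusted p = 0.00507). The other tested entries of this family passed no comparison with all libraries in the fit. MYCN 213588 had log2 fold changes of −0.335 in adult and −0.216 in old against young muscle. MYC 316279 had −0.705 and −0.380, with all adult libraries below all young ones, and MYC 418982, with few counts, had 0.508 and 0.660. Without old replicate 2, MYC 316279 was called lower at both older ages against young.

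Whole muscle holds other cells, and some of their markers moved with age as well. The lists are short and were not tested as lists. Of all tested entries, 17.2% were called lower and 16.2% higher in adult against young muscle. In old against young muscle these shares were 14.3% and 12.9%. No muscle marker was called in any comparison, and the 15 entries summed to 545928–601534 normalized counts in the young, 405271–601943 in the adult and 561945–714229 in the old libraries. Neural markers summed to 913–3484 in the young, 34–61 in the adult and 40–46 in the old libraries, and 8 of their 10 tested entries fell in adult and in old against young muscle; GFAP was at 0 to 5 in the adult and old libraries. Cartilage and bone markers summed to 3746–5186 in the young, 1167–1833 in the adult and 446–1158 in the old libraries, with 4 of 9 tested entries lower in adult and 8 in old muscle. Fibroblast markers summed to 93355–118131 in the young, 33435–69620 in the adult and 26919–70049 in the old libraries, with 3 of 7 lower and 1 higher in adult and 4 lower in old muscle. Most of this sum came from the collagen entries COL1A1A, COL1A1B and COL1A2, which were the 3 lower in adult muscle. DCN (−0.27 in adult and −0.43 in old against young) and LUM were not called, and PDGFRA was the 1 that was higher in adult muscle (0.53). Leukocyte markers summed to 273–388 in the young, 672–1383 in the adult and 428–588 in the old libraries, with 4 of 8 higher in adult and 2 in old muscle. Endothelial markers (443–559, 635–817 and 536–739 at the 3 ages) had 3 of 5 entries higher in adult and 2 in old muscle. EGFL7 of this list had −0.15 in adult and −0.62 in old against young muscle and was not called. Markers of red blood cells (789–994, 639–698 and 651–817) had 2 of 3 lower in old muscle. These 3 were ALAS2, SLC4A1A and SLC4A1B, with no globin among them. SLC4A1A, the most abundant, did not pass in old against young muscle (−0.12, adjusted p = 0.592, limma). Most of these cells make ribosomal proteins too, and the part of their numbers in the values above was not tested.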

How the data were processed

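Total RNA of skeletal muscle was sequenced by the authors as stranded paired-end libraries, trimmed with Trimmomatic (version 0.33), aligned with STAR (version 2.4.2a) and counted per gene with featureCounts (version 1.4.5-p1), which left out reads that fitted several genes. The values the authors deposited are a signal, counts divided with DESeq by 1 factor per library and rounded; this step is not described further, and count models were not used. Factors estimated from the spacing of the values gave the reads per library. The strand setting of the counting is not given in the sources used here. Where 3 libraries form a group, the SD measures the spread between fish of that age. The SE of a fold change comes instead from 1 fit of all 9 libraries. Its spread is pooled over the 3 ages and adjusted by a trend over all tested entries.

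Values were taken as log2(value + 1). Entries averaging at least 5 (17454) were tested in 1 fit of all 9 libraries with limma (version 3.58.1, eBayes with a trend, R 4.3.3) and adjusted by Benjamini-Hochberg over all of them. Tables and figures were made in Python 3.11.15. The script was tested on simulated data. Members and lists were chosen with earlier results of these data known, so no list was tested. Named members are those past the 2-fold limit, the 3 with the smallest p in each direction, the 3 most abundant of each subunit, paralogue pairs, stalk proteins, non-subunits and names with several entries; the other called entries, and most genes of the other lists, were named after their values were seen. Results of some single entries are not reported here. RefSeq names of the same species, from another assembly, gave 77 names under the rule, of which 57 had an entry and 20, such as RPLP0 and RPSA, were not analysed here. Alternatives were other scalings, filters, constants, fits and the omission of each library; counts of subunits only and the ratios of RPLP2 to RPLP1 and of entries with the same name were added after seeing the data.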

Additional observations from a re-analysis of the deposited data

How the results depend on the processing

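In adult against young muscle, where 5 ribosomal protein entries were called, the count was 3 with no filter on low values, 8 at equal library totals, 16 with totals without the 20 most abundant entries and 27 after quantile normalization. With these scalings 12.9%, 25.8% and 43.5% of the members were called, against 28.1%, 32.1% and 35.4% of all tested entries. The 2 calls past 2-fold became 1 with a constant of 5 and 1 with subunits only. In old against young muscle, where 14 were called, the same scalings gave 36, 34 and 40. These were 58.1%, 54.8% and 64.5% of the members, against 25.9%, 28.3% and 28.4% of all tested entries. The 3 past 2-fold became 5 at equal totals and 1 with subunits only. The median log2 fold change after quantile normalization was −0.35 in adult (−0.37 relative to all entries) and −0.55 in old (−0.57) against young muscle. For old against young it was −0.63 at equal totals and −0.55 without the top 20, and for old against adult −0.34 at equal totals. Without the 20 most abundant entries the mean shares were 4.70% in young, 3.86% in adult and 3.34% in old libraries. The cause of these moves other than the shift of all entries by scaling was not tested.

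With each library left out in turn, 2 to 6 entries were called in adult and 3 to 16 in old against young muscle and 0 to 1 in old against adult muscle, and 0 to 2 and 2 to 4 past 2-fold in the first 2. The shares of all tested entries called were not taken with a library left out. The count in adult muscle was 2 without young replicate 3 or adult replicate 2. That in old muscle was 3 without young replicate 3, 5 without young replicate 2 or old replicate 3 and 7 without young replicate 1. The 1 call in old against adult muscle, without old replicate 2, was RPL19 797599. Medians were −0.24 to −0.05 in adult and −0.45 to −0.24 in old against young, and −0.28 to −0.09 in old against adult muscle. The log2 ratio of RPL7L1 to RPL7 was −0.31 to 0.13 for old minus adult, and so changed sign.

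Samples with the same replicate number did not deviate together (correlations of −0.08 to 0.11, against −0.10 to 0.12 between other numbers). With a replicate block 4 entries were called in adult and 10 in old against young muscle and 0 in old against adult muscle (shares of all tested entries were not taken). Estimated depth was lowest in old replicate 3, at 7.96 M reads, and its part in entries with few counts was not tested. RPS27 188285 had 4 normalized counts there and 7 and 5 in old replicates 1 and 2.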
